A study of Mus musculus with 12 samples.

Results

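Consensus OCT4 peaks at 33 genes for early lineage transcription factors were described by number, density, width, place and sequence. The genes were taken from a list and sorted into trophectoderm (6 genes), endoderm (7), mesoderm (9) and ectoderm (11). A peak belonged to a gene if it overlapped the window from 20 kb before to 20 kb after the gene body in the RefSeq annotation of mm10. This gave 103 of the 53675 peaks in the list, and no peak fell into the windows of more than 1 of the 33 genes. No listed gene is X-linked, so the allelic ratios measured in this series did not cover them.

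The peaks come from ChIP-seq, which pulls down crosslinked chromatin with an antibody and reads the DNA that comes with it. The line was iXist-ChrX-Cast, female hybrid (Dom/129S x Cast) embryonic stem cells of the mouse (mESCs) in which a doxycycline-driven TetOn promoter controls Xist. They were kept in serum and LIF on mitotically inactivated SNLP fibroblasts, which were removed by pre-plating before the experiment. OCT4 was precipitated with the anti-OCT4A antibody C3OA3C1 from 2 libraries at day 0 (no doxycycline) and 2 at day 6 (6 days of doxycycline at 1 µg/ml, without differentiation). The peak list is a consensus, and the methods do not name the OCT4 libraries that entered it beyond a rule of overlap in 2 or more. It holds positions only. The list carries no height, read count or library of origin, so the depth behind a peak is unknown, replicates and days cannot be compared at these genes, and no p-values are given. An absent peak means that no consensus region was called, not that OCT4 was absent.

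OCT4, encoded by Pou5f1, is a POU-domain transcription factor that keeps embryonic stem cells pluripotent. It recognises the octamer element, and on many of its sites it binds beside SOX2 on a composite element made of a SOX site followed by an octamer-like site. Genes for lineage transcription factors are mostly silent in mESCs, where many carry CpG-rich promoters bound by Polycomb, and they direct cell types other than the pluripotent epiblast.

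The sequences of the peaks that hold these elements are shown first, since they match bases that OCT4 recognises. Such a match does not show that OCT4 binds at those bases. The bases are those of the reference assembly, and the alleles of the line were not read. Elements were searched on both strands in the central 300 bases of every peak, the octamer as ATGCAAAT or ATGCTAAT and the composite as TTGT, 1 free base, ATG, 2 free bases and AAT. A composite whose free bases complete ATGCAAAT or ATGCTAAT also holds an octamer. Of the 103 peaks, 14 at 13 genes held one or the other, and 1 (Sox9) held both. At most one per gene is printed, at Meis1 that of the wider peak, 5′ to 3′ on the strand that carries the element, with the element in capitals (GRCm38.p6, the assembly of mm10, from RefSeq). The 4 composites were in introns of Cdx2 (chr5:147305059-147305099, minus strand) and Meis1 (chr11:18946224-18946264 and chr11:18913412-18913452, minus strand) and downstream of Sox9 (chr11:112801640-112801680, minus strand).
Cdx2 composite: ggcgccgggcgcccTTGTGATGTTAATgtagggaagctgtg
Meis1 composite: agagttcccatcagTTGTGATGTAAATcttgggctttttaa
Sox9 composite: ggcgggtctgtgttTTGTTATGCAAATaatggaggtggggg

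Octamers without a composite lay in 10 peaks. Those shown were found at Sox7 (chr14:63936493-63936528, plus strand), Msgn1 (chr12:11222749-11222784, plus strand), T (chr17:8414543-8414578, minus strand) and Tbx6 (chr7:126776876-126776911, minus strand). Ectoderm genes with one included Lhx5 (chr5:120437350-120437380, minus strand), Pax3 (chr1:78143583-78143618, minus strand), Pax7 (chr4:139768856-139768887, plus strand), Sox1 (chr8:12395523-12395558, plus strand) and Sox21 (chr14:118230337-118230372, plus strand).
Sox7 octamer: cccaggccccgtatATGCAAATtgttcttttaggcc
Msgn1 octamer: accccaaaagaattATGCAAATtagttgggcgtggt
T octamer: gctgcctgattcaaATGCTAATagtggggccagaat
Tbx6 octamer: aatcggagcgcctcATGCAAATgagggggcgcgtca
Lhx5 octamer: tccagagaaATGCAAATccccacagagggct
Pax3 octamer: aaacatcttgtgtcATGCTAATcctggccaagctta
Pax7 octamer: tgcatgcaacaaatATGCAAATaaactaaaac
Sox1 octamer: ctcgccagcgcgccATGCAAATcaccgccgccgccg
Sox21 octamer: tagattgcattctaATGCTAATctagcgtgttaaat

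The DNA around these elements ranged widely in base content. The central windows at Sox1, Tbx6 and Cdx2 had 72.7%, 72.3% and 61.7% GC, and those of the other peaks shown or located above lay between 38.3% (the narrower Meis1 peak) and 55.3% (Lhx5). The central windows of the Cdx2 intron peak (chr5:147304811-147305110, plus strand) and of the Sox1 promoter peak (chr8:12395479-12395778, plus strand) are given whole, since they place a composite and an octamer in DNA with 18 and 35 CpG dinucleotides per window. In the Cdx2 window the capitals are the reverse complement of the composite.
Cdx2 window: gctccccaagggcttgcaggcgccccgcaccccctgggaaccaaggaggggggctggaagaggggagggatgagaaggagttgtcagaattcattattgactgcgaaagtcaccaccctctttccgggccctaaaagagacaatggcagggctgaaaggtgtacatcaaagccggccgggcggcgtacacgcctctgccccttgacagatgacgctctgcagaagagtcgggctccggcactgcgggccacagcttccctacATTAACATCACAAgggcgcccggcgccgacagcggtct
Sox1 window: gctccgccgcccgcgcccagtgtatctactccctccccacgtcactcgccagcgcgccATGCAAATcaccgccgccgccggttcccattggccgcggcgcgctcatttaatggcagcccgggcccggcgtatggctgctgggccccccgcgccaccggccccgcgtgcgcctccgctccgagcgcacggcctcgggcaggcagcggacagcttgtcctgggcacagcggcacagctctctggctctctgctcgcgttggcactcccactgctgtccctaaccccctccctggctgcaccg

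Most lineage genes had OCT4 peaks, and how their number compared with other genes of their size depended on the distance counted. A peak lay within 20 kb of 31 of the 33 genes (93.9%), against 80.3% of all 21774 protein-coding genes, and of genes of like length 79.7% had one. Like length means a gene body from 0.8 times as long up to the inverse of that ratio, and the percentage is the mean over the 33 comparisons. The number per gene ran from 0 to 10 with a median of 3, and 5 genes had exactly 1 peak, 20 had 2 to 4 and 6 had 5 or more. More peaks than the median of their like-length genes were counted at 15 of the 33, while 10 equalled it and 8 were below it. Among all protein-coding genes 41.8% exceeded that median, so within 20 kb the share is near the background. Closer to the gene it was not: 20 of 33 exceeded it within 5 kb (35.6% of all protein-coding genes) and within 10 kb (36.9%), and 19 in the body alone (31.3%). Counting only peaks nearest to the gene's own start gave 21 (35.2%). Only Eomes and Lhx5 had a count that at most 10% of like-length genes reached, as 8.02% of all protein-coding genes did. Summed over the list, the genes had 103 peaks where the means of their like-length genes add to 90.5.

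**Figure D1:**
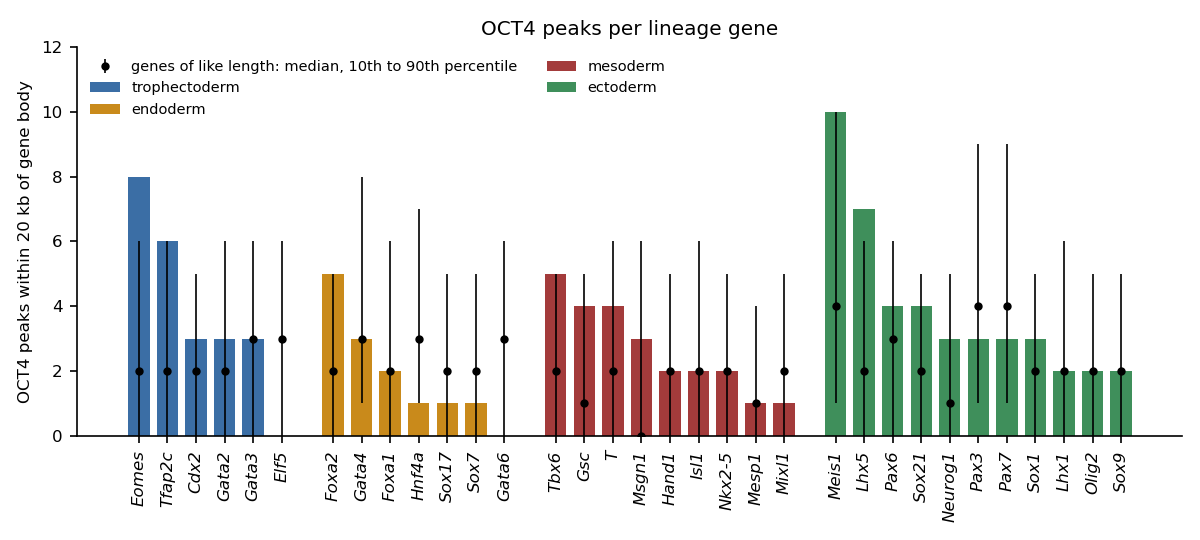
Number of consensus OCT4 peaks within 20 kb of the body of each lineage gene (bars, coloured by layer), with the median (point) and a line from the 10th to the matching upper percentile of protein-coding genes of like length. Meis1 (10 peaks), Eomes (8) and Lhx5 (7) are the tallest bars, and Elf5 and Gata6 have no peak.

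Pooled over the list, the gene bodies stood out more than their surroundings, with differences between layers. A peak overlapped the body of 24 of the 33 genes (72.7%), against 61% of all protein-coding genes and 55.9% of those of like length. The bodies held 48 peaks, 1.42 times the 33.7 that like-length means add to. By layer this ratio was 1.88 in ectoderm (28 peaks, 8 of them at Meis1) and 1.69 in trophectoderm (10 peaks). It was only 1.09 in mesoderm (5 peaks) and 0.602 in endoderm (5 peaks). The ratio in bodies was 1.33 for paralogues of these genes and 3.24 for pluripotency regulators, lists described at the end. It was 1.15 for housekeeping genes and 0.675 for terminal tissue genes. A body peak was found at 76% of housekeeping genes, 64.3% of paralogues, 95% of pluripotency regulators and 33.3% of terminal tissue genes. Having a body peak was thus not particular to the lineage genes. By peak centre, the density was 0.0604 peaks per kb in the bodies and 0.0432 within 20 kb outside them, and 0.0313, 0.0285 and 0.0298 at 20 to 50, 50 to 100 and 100 to 200 kb. For all protein-coding genes, which have longer bodies (median 17219 bp against 7402 bp), these values were 0.0272, 0.0415, 0.0360, 0.0342 and 0.0330. Beyond 20 kb the lineage genes thus had slightly fewer peaks per kb than the average gene.

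**Figure D2:**
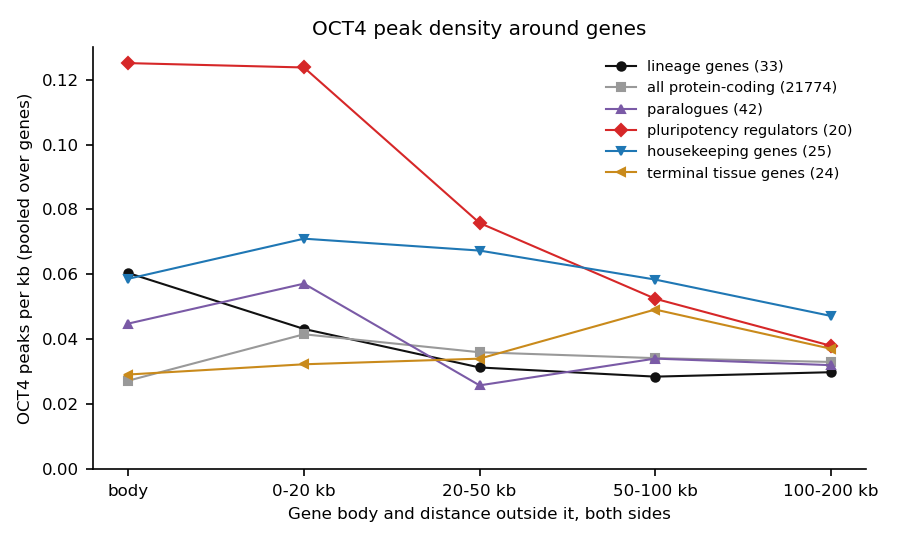
OCT4 peaks per kb, pooled over the genes of each list, in the gene body and at rising distance outside it (horizontal axis, both sides together). Lineage genes (black, 33 genes) fall from 0.0604 in the body to 0.0285 at 50 to 100 kb, while pluripotency regulators (red) start at 0.125.

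The layers differed in how much they held, as a description, since genes of a layer are not replicates. Trophectoderm and ectoderm genes had a median of 3 peaks, mesoderm genes 2 and endoderm genes 1. Median densities were 0.0606, 0.0558, 0.0460 and 0.0215 peaks per kb of window in that order. The order of the first 3 changed with the setting. Ectoderm led in the body (0.136 against 0.115 for trophectoderm), mesoderm passed ectoderm within 5 kb (0.0934 against 0.0854), and with only peaks nearest to the own start mesoderm fell to a median of 1 peak and 0.0242 per kb. Endoderm had the lowest median density in each of these settings, with 0.0213 beside mesoderm in the last. Relative to the sum of like-length means, the peak number was 1.37 times for trophectoderm, 1.29 for ectoderm, 1.20 for mesoderm and 0.639 for endoderm. The ranges overlapped widely, with 0 to 8 peaks in trophectoderm, 0 to 5 in endoderm, 1 to 5 in mesoderm and 2 to 10 in ectoderm. Several genes act in more than 1 layer (Eomes, Hand1, Sox9, Lhx1 and Meis1). With these 5 counted in the other layer, mesoderm had a median of 2.5, and trophectoderm and ectoderm kept 3.

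In the trophectoderm group 5 of 6 genes had peaks, 23 in all (84.6% of genes of like length had any). Eomes, the T-box gene of trophoblast and later of the primitive streak, had 8 where like-length genes had a median of 2, and 3.5% of those had as many. This was 0.167 peaks per kb of window, the highest density of the 33 genes, and Tfap2c had 0.113. Of its peaks 3 overlapped the body, the widest in a coding exon near the start (chr9:118478508-118479227, 720 bp), and 5 trailed downstream, the last of them (577 bp) at the start of the neighbouring gene Golga4. Tfap2c, which encodes the AP-2 gamma factor of trophoblast and germ cells, had 6 (median of like-length genes 2, with 12.3% reaching 6). Both of its promoter peaks (chr2:172548785-172549941, 1157 bp, and chr2:172550559-172551293, 735 bp) lay at internal starts, 3685 and 5248 bp into the gene.

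Cdx2, the caudal homeobox gene that specifies trophectoderm, had 3 peaks. One covered the promoter (chr5:147306704-147307550, 847 bp), and the wide intron peak with the composite (chr5:147304132-147305790, 1659 bp) was 913 bp away. Gata2 and Gata3, zinc finger genes of the trophoblast, had 3 each, beside like-length medians of 2 and 3. At Gata2 they lay 4105 bp upstream, at the promoter (chr6:88193955-88194270, 316 bp) and downstream (chr6:88215147-88216067, 921 bp). At Gata3 an upstream peak (chr2:9904003-9904534, 532 bp) was the widest, and the other 2 were intronic. Densities were 0.0647 per kb at Cdx2, 0.0565 at Gata2 and 0.0423 at Gata3. Elf5, an ETS factor gene that holds cells in the trophoblast lineage, had none, and the nearest peak was 47803 bp from its body.

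Endoderm genes had 13 peaks in all, and 4 of 7 were below the median of their like-length genes. Gata6, which with Gata4 directs primitive endoderm, had none, and its nearest peak was 129209 bp away. The chromosome that carries Gata6 had 1562 peaks in the list. Gata4 had 3, one at an internal start (chr14:63245220-63245737, 518 bp), one in an intron and the last (chr14:63193229-63193869, 641 bp) within 24 bp of a start of Neil2. Sox17, a SOX gene of endoderm, had 1 peak, in an intron, and at 2147 bp it was the widest of all 103 (chr1:4491651-4493797). Its relative Sox7 had 1 upstream (chr14:63936423-63936793, 371 bp), which holds the octamer printed above. Densities were 0.0266 per kb at Gata4, 0.0215 at Sox17 and 0.0213 at Sox7.

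Foxa2, the forkhead gene of definitive endoderm and node, was the exception among the endoderm genes, with 5 peaks where like-length genes had a median of 2 (17.1% reached 5). Its promoter peak (chr2:148046330-148046932, 603 bp) was the widest, and the others lay 6350 bp upstream and 6101, 9988 and 17635 bp past the start, downstream of the gene. Foxa1 had 2, of which the wider was in a coding exon (chr12:57542435-57543087, 653 bp). Hnf4a, a nuclear receptor gene of visceral endoderm and liver, had 1, upstream in the body of R3hdml and 809 bp from a start of that gene (chr2:163492942-163493312, 371 bp). Densities spanned 0.113 per kb at Foxa2, 0.0422 at Foxa1 and 0.00943 at Hnf4a, the lowest above 0.

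All 9 mesoderm genes had peaks, 24 in all (70.4% of genes of like length had any). None of the 24 had its centre in an intron, where 26.7% of all pairs of protein-coding genes and peaks did. The mesoderm gene bodies were short (median 3992 bp) and held only 4 of the peak centres. T, which encodes Brachyury, had 4, all upstream or at the promoter (chr17:8433923-8434267, 345 bp). The widest was 4473 bp upstream (chr17:8429557-8430343, 787 bp), and 2 of the others lay in the body of the neighbouring gene T2. The predicted coding gene LOC115486424, whose body holds the promoter peak, had the nearest start to the 3 upstream peaks. Gsc, a homeobox gene of the organizer, also had 4. A peak of 1017 bp covered its promoter (chr12:104472708-104473724), and one of 1529 bp lay 2489 bp upstream (chr12:104474961-104476489). Densities were 0.0832 per kb at T and 0.0952 at Gsc.

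At Mixl1 and Mesp1, a homeobox and a bHLH gene of the primitive streak and early mesoderm, the only peak was at the promoter (chr1:180696614-180697348, 735 bp, and chr7:79792685-79793722, 1038 bp). Isl1, a LIM homeobox gene of cardiac progenitors and motor neurons, had a promoter peak (chr13:116309658-116310242, 585 bp) and a narrow one of 74 bp downstream, and the next peak was 401797 bp beyond its body. Nkx2-5, a cardiac homeobox gene, had 2 (the wider chr17:26849772-26850429, 658 bp). Hand1, a bHLH gene of trophoblast and heart, had 2, both downstream (the wider chr11:57827774-57828161, 388 bp). Msgn1, a bHLH gene of presomitic mesoderm with a body of 567 bp, had 3 where like-length genes had a median of 0 (19.6% reached 3). None of the 3 touched the body (the widest chr12:11198515-11199243, 729 bp). This was 0.0740 peaks per kb of window at Msgn1. The others were lower, with 0.0460 at Hand1, 0.0432 at Nkx2-5, 0.0389 at Isl1, 0.0242 at Mesp1 and 0.0227 at Mixl1.

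Tbx6, the T-box gene of paraxial mesoderm, had 5 peaks (0.113 per kb), yet 4 of them lay at starts of its neighbours Ypel3, Ppp4c and Aldoa. The widest was the one at Ppp4c (chr7:126792009-126792924, 916 bp), and the octamer printed for Tbx6 is in the one at Ypel3. Its window overlapped 5 other protein-coding genes, the most of any gene in the list. In the whole list 7 of 103 peaks lay within 500 bp of a start of another protein-coding gene, at Tbx6, Gata4, Eomes and Lhx1. For 83.5% of the peaks the nearest protein-coding start was that of the listed gene. Over all pairs of a protein-coding gene and a peak in its window this was 57.5%. It was 84.8% at paralogues and 88.6% at pluripotency regulators, so it was not particular to the lineage genes. Housekeeping genes had 57.0% and terminal tissue genes 55.1%. No other protein-coding gene reached into 18 of the 33 windows. The share of such windows over all genes was not counted, nor was that of peaks at another gene's start over all pairs.

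All 11 ectoderm genes had at least 2 peaks, and they held 43 of the 103. Of genes of like length 82.0% had any peak. Meis1, a TALE homeobox gene of neural and blood progenitors, had 10, beside a like-length median of 4 (11.9% reached 10). The gene body is 139224 bp long, and the density of 0.0558 per kb was close to the median of the layer. From the start inward there were a promoter peak (chr11:19018724-19019192, 469 bp) and 7 intron peaks, the last 106238 bp from the start. The widest intron peak (chr11:18945803-18946767, 965 bp) carries the first Meis1 composite. Lhx5, a LIM homeobox gene of forebrain and spinal cord, had 7 in a window of 49.6 kb (0.141 per kb), and 6.39% of like-length genes reached that number. Its promoter peak was the widest (chr5:120431036-120432166, 1131 bp). Lhx1 had 2 (0.0421 per kb), one upstream at the promoter (chr11:84525428-84526465, 1038 bp) and one at a start of Aatf.

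The paired-box genes, which pattern the neural tube, eye and neural crest, had 3 or 4 each. Pax6 had 4, all inside the gene, with peaks at 2 internal starts, of 803 and 600 bp (the narrower chr2:105676201-105676800), and 2 in introns. Pax7 had one at the promoter (chr4:139833234-139833719, 486 bp) and 2 in introns, 448 bp apart. Pax3 had 3, all intronic and none at a promoter (the widest chr1:78119908-78120413, 506 bp). Both Pax3 and Pax7 were below the like-length median of 4, with 0.0221 and 0.0220 peaks per kb, where Pax6 had 0.0575.

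Among SOX genes, Sox21 had 4, Sox1 had 3 and Sox9 had 2, at 0.0913, 0.0681 and 0.0439 per kb. Sox1 is an early marker of neuroectoderm, and its octamer-bearing promoter peak was 262 bp wide (chr8:12395499-12395760). It was followed by one in the coding exon and a wider one downstream (chr8:12400694-12401150, 457 bp), and all 3 lay in the body of the non-coding gene Sox1ot. The Sox21 promoter peak (chr14:118236445-118237445) was 1001 bp wide, and another of its peaks had its centre in the UTR. Sox9, a gene of neural crest and cartilage, had no peak in its body, only one 8941 bp upstream (chr11:112773069-112773470, 402 bp) and the one with the composite downstream. Neurog1 and Olig2 are bHLH genes of neurogenesis. Neurog1 had a promoter peak (chr13:56251458-56252639, 1182 bp) and a wide one 6682 bp upstream (chr13:56258117-56259607, 1491 bp) among 3, and Olig2 had 2, in its coding exon and downstream (chr16:91248356-91248837, 482 bp). Densities were 0.0719 per kb at Neurog1 and 0.0464 at Olig2.

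**Figure D3:**
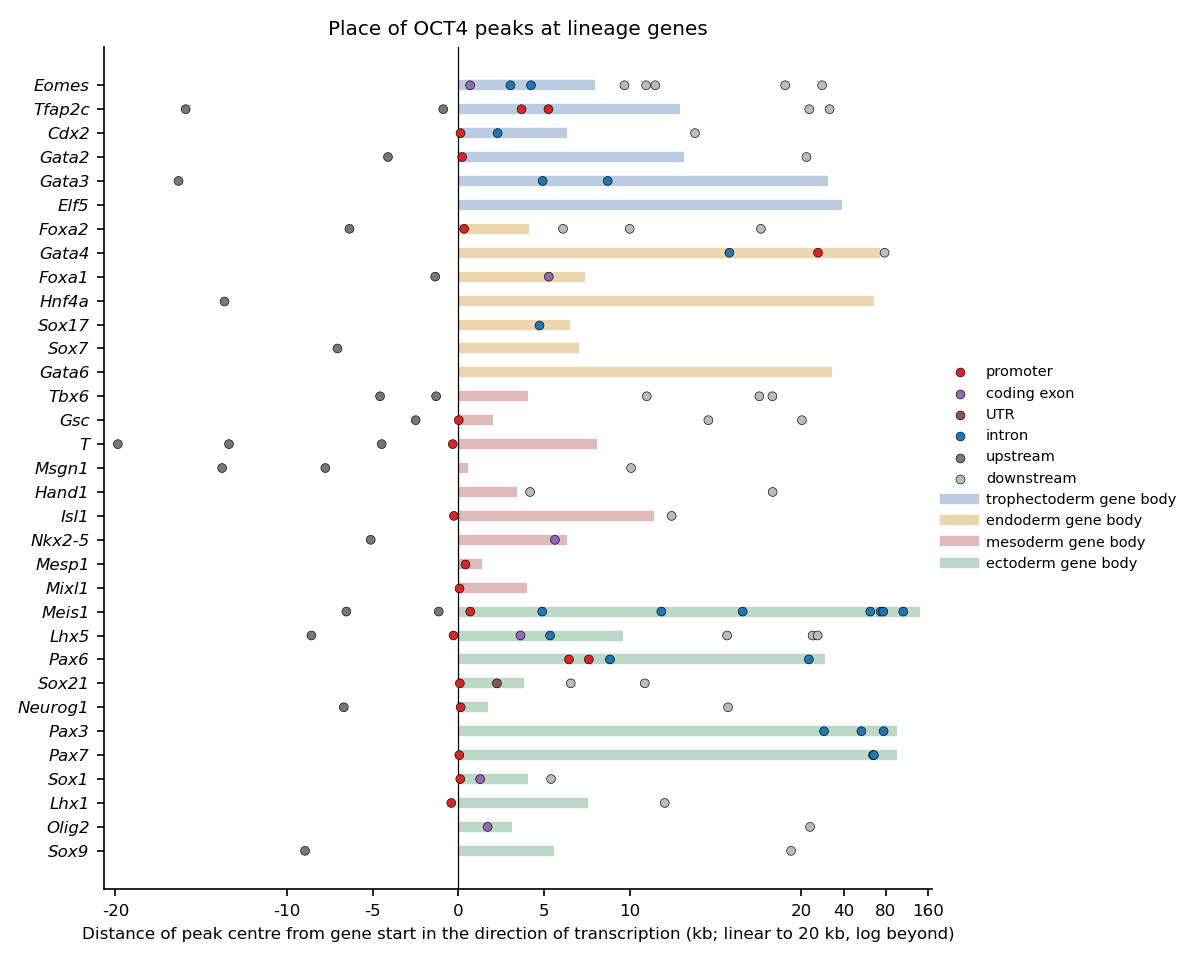
Position of each OCT4 peak centre (points, coloured by place) relative to the outermost RefSeq start of its gene, in kb along the direction of transcription (linear to 20 kb, logarithmic beyond), with gene bodies as bars coloured by layer. Promoter points away from 0 (Tfap2c, Gata4, Pax6, Meis1) are at internal starts, and Elf5 and Gata6 have no points.

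By place, 20 peaks (19.4%, 95% exact binomial interval 12.3 to 28.4) had their centre within 500 bp of a start of their gene, 22 (21.4%) in an intron, 6 (5.83%, 2.17 to 12.2) in a coding exon and 1 in a UTR. A further 22 were upstream and 32 (31.1%) downstream. Over all pairs of protein-coding genes and peaks the shares were 18.03% promoter, 26.7% intron, 1.83% coding exon, 1.77% UTR, 24.4% upstream and 27.2% downstream. These shares are not matched for gene length, and the lineage genes have shorter bodies (median 7402 bp against 17219 bp). Whether the exon and intron shares differ from those of like-length genes was not tested. The coding exon peaks were those of Eomes, Foxa1, Nkx2-5, Lhx5, Olig2 and Sox1. Intervals cover counting error only, and peaks of a gene share its surroundings. A promoter peak was present at 18 of the 33 genes, against 48.5% of all protein-coding genes and 46.0% of those of like length. By layer these were 3 of 6 trophectoderm, 2 of 7 endoderm, 5 of 9 mesoderm and 8 of 11 ectoderm genes. The shares of their like-length genes were 51.3%, 51.8%, 35.2% and 48.3% in that order. Paralogues had a promoter peak about as often as the 33 genes (54.8% against 54.5%). Housekeeping genes (72%) and pluripotency regulators (75%) had one more often, and terminal tissue genes (16.7%) less often. Having a promoter peak was thus not particular to the lineage genes.

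Peaks at lineage genes were slightly wider than the rest, and their DNA was richer in GC. The median width was 469 bp (quartiles 331 and 718) against 421 bp for all peaks (304 and 640), and 10.7% against 8.72% exceeded 1000 bp. Peaks within 20 kb of any protein-coding gene had medians of 432 bp and 50.7% GC, somewhat closer to the lineage genes. At protein-coding starts lay 26.2% of the peaks at lineage genes and 20.1% of all peaks. Away from protein-coding starts the 76 peaks had a median width of 400.5 bp and the 42894 peaks of the list 395 bp. There the GC content of the central 300 bases had a median of 52.7% (quartiles 47.7 and 56.9) against 47.3% (43.3 and 52.0), and the number of CpG dinucleotides a median of 7 against 3. At protein-coding starts the 27 peaks and the 10781 of the list had medians of 66% and 67% GC. The Gata4 intron peak (615 bp) reached 79.3% GC, the highest of the 103. The comparison lists described at the end were not split by starts, so whether the excess away from starts is particular to these genes was not tested. With all peaks of a list together, the median GC content was 56% at paralogues and 55% at housekeeping genes, beside 55% here. It was 53.3% at terminal tissue genes and 50.7% at pluripotency regulators. Median widths in these lists were 451, 525, 413 and 545 bp in that order.

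**Figure D4:**
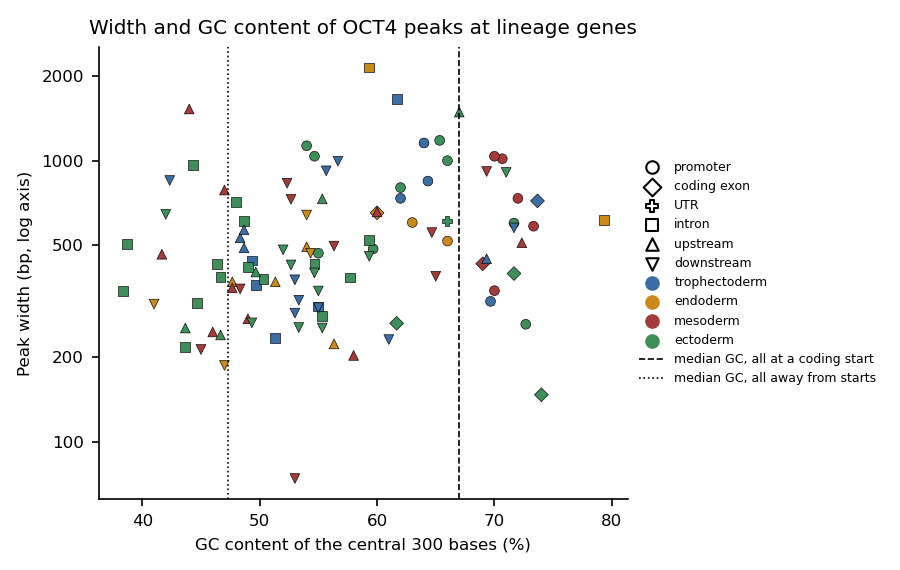
Width (bp, logarithmic axis) against GC content of the central 300 bases (%) for the 103 OCT4 peaks at lineage genes, coloured by layer with symbols for place. Vertical lines mark the median GC content of all OCT4 peaks at protein-coding starts (67%) and away from them (47.3%), and many intron, upstream and downstream peaks lie between the lines.

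The octamer was no more frequent than in other OCT4 peaks. It was in 11 of the 103 windows (10.7%, interval 5.45 to 18.3) and in 11.9% of all peaks, while windows of the same length about 2500 bp to the side held it in 2.91% and 2.92%. The composite was in 4 windows (3.88%, 1.07 to 9.65) against 1.07% of all peaks (0.989 to 1.17) and 0.117% of the windows beside them. These intervals overlap. Away from protein-coding starts the shares were 5.26% (1.45 to 12.9) and 1.32% (1.22 to 1.44), whose intervals did not overlap by a narrow margin, and the split was made after seeing the data. The 4 windows include both Meis1 composites, while the intervals treat peaks of the same gene as independent, so this margin carries little weight. At protein-coding starts, 3 of 27 peaks held the octamer (11.1%, 2.35 to 29.2) where 2.73% of the 10781 did (2.43 to 3.05), among them those at Sox1 and the start of Ypel3 near Tbx6. These intervals overlap as well. Away from starts the octamer count was 8 of 76 (10.5%, 4.66 to 19.7) against 14.2%. None of the 4 composites was at a start, where 0 of 27 allows a share of up to 12.8%.

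**Figure D5:**
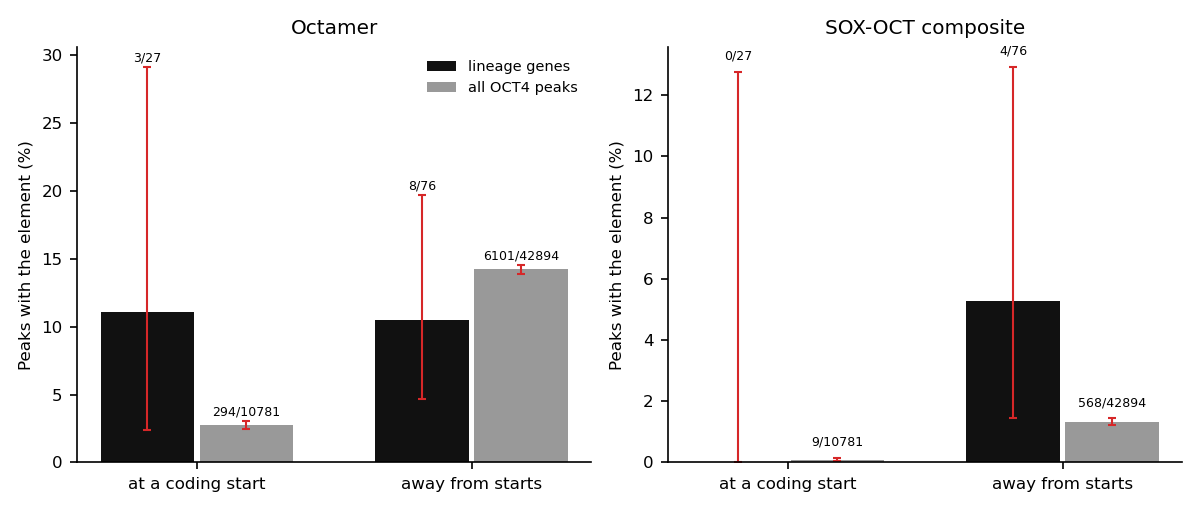
Share of OCT4 peaks (%) whose central 300 bases hold the octamer (left) or the SOX-OCT composite (right), at protein-coding starts and away from them, for lineage genes (black) and all peaks (grey), with 95% exact binomial intervals in red and counts above. The composite was in 4 of 76 peaks away from starts at lineage genes, and the octamer in 3 of 27 at starts.

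Spacing varied widely along the genes. Between neighbours of a gene the 72 gaps had a median of 5983 bp, and 10 were under 1000 bp, the smallest of 226 bp downstream of Eomes. At the edge of the window the farthest peak counted was 19831 bp beyond its gene, and the nearest left out was 20178 bp beyond Mesp1. From 15 to 20 kb there were 8 peaks and from 20 to 25 kb 16. No region called in input (843 in all) lay in any of the 33 windows. How often the windows of other genes hold such a region was not counted, so its absence cannot be read as a trait of these genes.

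For comparison, 42 paralogues of the listed genes were counted the same way. Of these 39 had a peak, with a median of 3 and a range of 0 to 10, and 151 peaks in all were 1.28 times the sum of like-length means (1.14 times for the 33 genes). Within families the numbers varied. The GATA genes had 0 at Gata6, 1 at Gata5, 3 at Gata2, Gata3 and Gata4 and 4 at Gata1, and Tfap2a had 10 where Tfap2c had 6. Sox2 and Tbx3, with 10 each, are in this list and are also pluripotency regulators. The 20 pluripotency regulators had a median of 7.5 (3 to 26) and 2.96 times the sum of like-length means, and 19 exceeded the like-length median. The 25 housekeeping genes had a median of 3 and 1.41 times that sum, and 24 genes of terminal tissues had 2 and 0.735 times, with 16 of 24 holding any peak.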

How the data were processed

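The series has 12 libraries (OCT4, YY1 and input, 2 each at day 0 and day 6), grouped by their labels. The deposited OCT4 list gives peak positions (BED, counted from 0, printed here from 1). According to the study's methods the authors aligned reads with Bowtie2 (2.3.5.1 in the submitters' processing notes) to mm10, removed duplicates with Picard, called peaks per library with MACS2, kept regions found in 2 or more libraries and subtracted regions called in input. The allelic ratio tables, which cover X-linked peaks, were not used.

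Gene bodies, starts and bases came from RefSeq GRCm38.p6, the assembly of mm10 (21774 protein-coding genes on the assembled chromosomes). Python 3.11.15, pandas 2.3.3, scipy 1.17.1 and pysam 0.24.0 were used. Counting and motif search were tested on simulated data. A peak counted by 1 bp of overlap, and place was set by the peak centre. The members, layers and lists were chosen with earlier results of these data known. All 33 genes were named, with coordinates for the widest peak and promoter peaks, and sequences where the central window held an element (1 item is not reported here). The comparisons of body peaks, promoter peaks and GC content with like-length genes or all peaks, the split by protein-coding starts, and the sums of like-length means were chosen after values were seen.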

Additional observations from a re-analysis of the deposited data

How the results depend on the processing

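The peak list is pooled and has no values per library, so no library could be left out. No paired analysis was possible because the results come from no test. Of 135 values recomputed under other settings, 103 stayed within 1.5 times the reported count, median or density, or within the counting interval of a share, and 32 did not. The setting with no other listed gene within 200 kb kept all 33 genes, so its densities could not change. Counts of genes above their like-length median all fell within 1.5 times, although they ran from 11 to 21 beside 15 in the main setting. Distance moved most of the 32. In the body alone, within 5 kb and within 50 kb the lineage genes had 48, 67 and 164 peaks. The median per gene was 1 in mesoderm for the body alone, and within 50 kb it was 5, 3, 4 and 5 in trophectoderm, endoderm, mesoderm and ectoderm. Median densities per kb in trophectoderm were 0.115, 0.104 and 0.102 in the body, within 5 kb and within 10 kb, in mesoderm 0.0876, 0.0934 and 0.0712, and in ectoderm 0.136 and 0.0854 in the first 2, while endoderm had 0.0370 within 10 kb. With only the peaks nearest to a gene's own start, mesoderm fell to a median of 1 and 0.0242 per kb. The comparison lists had medians of 1 (paralogues), 2 (pluripotency regulators), 0 (terminal tissue genes) and 1 (housekeeping genes) in the body. Within 5 kb pluripotency regulators had 4, terminal tissue genes 0 and housekeeping genes 1, and within 10 kb terminal tissue genes had 1. Within 50 kb the 4 lists had 5, 11.5, 4 and 7. A promoter limit of 2000 bp gave 29.1% of peaks. The genes above their like-length median numbered 11 to 21 of 33, with the lowest against genes that have a peak (32.1% of all genes above) and the highest for peaks nearest to the own start (35.2%). In the body alone they were 19 (31.3%). Leaving chemosensory receptor genes and genes on Y out of the comparison, a setting chosen after seeing the data, gave 15 (40.5%).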
